A study of Mus musculus with 6 samples.

Results

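The interferon regulatory factor (IRF) genes Irf1, Irf2, Irf3, Irf4, Irf5, Irf7, Irf8 and Irf9 were examined in regulatory T (Treg) cells with and without the transcription factor Batf. Every probe set annotated to exactly 1 gene, with that gene among these 8, was taken, which gave 14 probe sets of the 34945 with 1 gene and the 45101 on the array. Irf3 had 4 probe sets, Irf4, Irf5 and Irf8 had 2 each, and Irf1, Irf2, Irf7 and Irf9 had 1 each. RNA was measured on 3 arrays of Treg cells from Batf+/+ mice and 3 arrays of Treg cells from Batf-/- mice, which lack Batf. Mice of both genotypes were C57BL/6 and carried human CD2 as a reporter of Foxp3, and hCD2+CD4+ cells were sorted from lymph node and spleen and used without culture. The labels give Batf-/- as the genotype of the mice and name no restriction of the deletion to Treg cells. Age, and whether each array came from a different animal, are not given there, and any spread between these arrays, on which the p-values rest, may include technical variation only.

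IRF proteins share an N-terminal DNA-binding domain with conserved tryptophans and bind GAAA repeats. Irf3, Irf5 and Irf7 are activated by phosphorylation after innate sensing and induce interferon genes, Irf9 is the DNA-binding part of a complex that answers interferon, Irf1 is induced by interferon gamma and Irf2 can counter it. Irf4 and Irf8 bind DNA poorly alone and are recruited by partners, PU.1 and related Ets factors in B and myeloid cells and heterodimers of Batf and Jun in T cells. In Treg cells Irf4 is known for its part in effector differentiation.

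For each probe set the values are log2 levels set against the middle one of the 3 Batf+/+ arrays. They show how far a probe set differed between arrays but not how abundant its transcript was. The amount of 1 gene's RNA therefore cannot be read against that of another. Nor could the sorted cell type be checked by the level of its markers. Batf itself had values of -3.13, -3.16 and -2.37 on Batf-/- arrays 1, 2 and 3 and lay between -0.13 and 0.14 on the Batf+/+ arrays, following the labels on every array. Of 8 measured Treg markers, the surface receptor Nrp1 fell and the other 7 did not pass the test, against 1.14% of all genes that passed. At an unadjusted p below 0.05, 3 of the 8 were lower and 1 was higher, the genotypes did not overlap in 6, and the mean of the list lay between -0.07 and 0.03 on the Batf+/+ arrays and between -0.31 and -0.22 on the Batf-/- arrays. Over all probe sets 6.9% reached such a p and 11.7% did not overlap. These shares were not counted over genes, here or for the lists below. Foxp3 had a log2 difference of -0.12 ± 0.08 (SE, n = 3, limma adjusted p = 0.892), the Treg factor Ikzf2 one of -0.51 ± 0.10 (limma adjusted p = 0.0526) and the receptor Tnfrsf18 one of -0.21 ± 0.07 (limma adjusted p = 0.430), the latter pair named after their values were seen. The 2 of 8 markers above 0 were Il2ra (0.21 ± 0.07, limma adjusted p = 0.394) and Cd4 (0.0093 ± 0.08), also named afterwards. The part of these marker differences in the IRF values was not tested. The spread over all probe sets was 0.12 to 0.17 (SD) on the Batf+/+ arrays, from which the median was subtracted, and 0.24 to 0.26 on the Batf-/- arrays. Quantile normalization, an alternative used below, makes these spreads equal. On such centred values it also shrinks differences, that of Batf from -2.89 to -2.01, so calls lost under it say little about array scaling. Differences are given as Batf-/- minus Batf+/+ with the limma standard error, n = 3 arrays per genotype, and adjusted p-values cover all 34945 probe sets or all 18193 genes. In bulk RNA a change in the share of cells that express a gene and a change in RNA per cell cannot be told apart.

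Irf1, Irf4 and Irf8 are the members in which all 3 Batf-/- arrays lay above all 3 Batf+/+ arrays on at least 1 probe set. The 250 bases before their annotated starts are printed 5′ to 3′ from RefSeq (GRCm38.p6, forward strand), for Irf1 chr11:53769764-53770013, for Irf4 chr13:30748983-30749232 and for Irf8 chr8:120736108-120736357. Capitals mark TTCNNNGAA, the core of the element bound by STAT factors.
Irf1: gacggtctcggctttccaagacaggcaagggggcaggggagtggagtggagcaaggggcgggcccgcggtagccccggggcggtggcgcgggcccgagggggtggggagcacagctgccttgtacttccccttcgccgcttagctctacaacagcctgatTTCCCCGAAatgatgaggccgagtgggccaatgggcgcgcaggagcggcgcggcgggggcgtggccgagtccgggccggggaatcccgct
Irf4: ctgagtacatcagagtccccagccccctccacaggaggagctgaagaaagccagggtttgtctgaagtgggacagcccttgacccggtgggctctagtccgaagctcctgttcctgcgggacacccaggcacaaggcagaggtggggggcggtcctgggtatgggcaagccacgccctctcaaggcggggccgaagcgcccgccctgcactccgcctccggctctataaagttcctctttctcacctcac
Irf8: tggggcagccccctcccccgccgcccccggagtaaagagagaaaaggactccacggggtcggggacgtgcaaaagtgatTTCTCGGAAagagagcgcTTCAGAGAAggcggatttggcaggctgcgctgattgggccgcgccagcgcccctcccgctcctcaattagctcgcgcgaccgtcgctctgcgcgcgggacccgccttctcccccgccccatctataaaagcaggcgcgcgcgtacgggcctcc
The first base of the match in Irf1 lay 90 bases before the start, and those in Irf8 lay 171 and 153 bases before it. Windows of all 8 genes were found, 11 windows in all, since Irf1, Irf8 and Irf9 have 2 starts each. TTCNNNGAA occurred in 3 of these 11 windows, those printed for Irf1 and Irf8 and that of Irf2, and in 7.02% of all 32851 windows of this length. The core of the IRF element, GAAA repeated after a spacer of 2 bases, occurred in 1 of 11, Irf2, and in 2.98% of all windows. TGANTCA, the AP-1 element that Batf and Jun bind, occurred in 0 of 11 and in 6.75% of all windows. Composite elements of an IRF half-site and the AP-1 letters, GAAA directly before TGANTCA or TTTC and a spacer of 4 bases before it, occurred in 0 of 11 and in 0.1% and 0.0974% of all windows. Both strands were searched, and matches of letters are a description of these windows only.

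Most IRF probe sets had slightly higher values in Batf-/- Treg cells, and the differences were largest in Irf4, Irf8 and 1 probe set of Irf5. Of the 14 probe sets, 11 had a difference above 0 and 3 below, with a median of 0.14 against 0.0040 over all probe sets. In 6 of the 14 the difference was under 0.2 in size, and some of these changed sign when 1 array was left out. The share above 0 over all probe sets was not counted. At an adjusted p below 0.05, 0 of 14 passed in limma, against 0.713% of all probe sets. With the replicate number as a block 1 passed, Irf4 1421173_at, where 236 of all probe sets were lower and 92 higher past the threshold. At an unadjusted p below 0.05, 4 of 14 passed, against 6.9% of all probe sets. Arrays of the genotypes did not overlap in 5 of 14, 4 of them higher and 1 lower in Batf-/- cells, against 11.7% of all probe sets, 5.49% higher and 6.24% lower. When the probe sets of a gene were averaged first, Irf4 was the 1 of 8 genes that passed, against 1.14% of all genes. With the block Irf4 and Irf8 passed, in a fit whose share of all genes past the threshold was not counted.

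**Figure D1:**
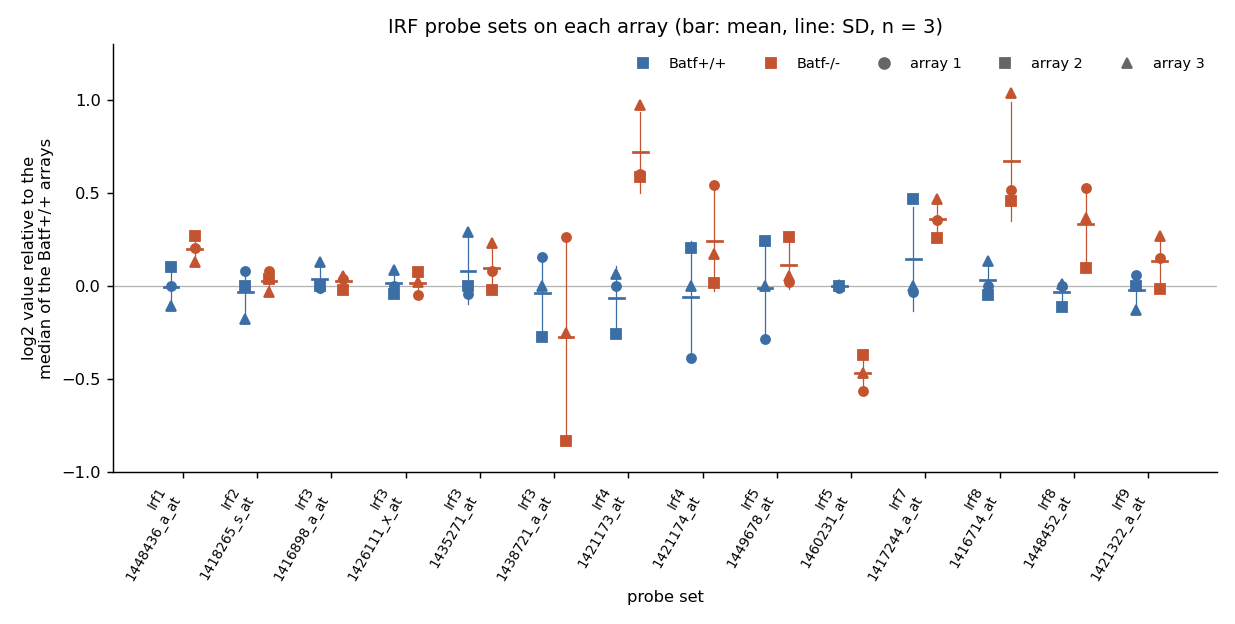
Log2 value of each of the 14 IRF probe sets (x axis) on each array, counted from the middle Batf+/+ array (y axis), with blue for Batf+/+, red for Batf-/-, marker shape for the array number, short bars for means and lines for SD (n = 3). The Batf-/- points lie above all Batf+/+ points in Irf1, 1 probe set of Irf4 and both of Irf8, and below them in Irf5 1460231_at.

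Irf4, the IRF through which Batf acts in T cells, had higher values on its probe set 1421173_at in all Batf-/- arrays. The Batf+/+ arrays 1, 2 and 3 had log2 values of 0, -0.26 and 0.06, and the Batf-/- arrays had 0.60, 0.58 and 0.97. The groups did not overlap, and Batf-/- array 3 was the highest. The difference was 0.78 ± 0.13 (SE, n = 3), 1.72-fold, with a 95% interval of 0.47 to 1.09 and a limma adjusted p = 0.0521, the 256th smallest p of all probe sets. It passed the threshold with the replicate number as a block (adjusted p = 0.0189), with array weights (0.0297) and with robust moderation (0.0473). It also passed without probe sets whose names end in _a_at, _s_at or _x_at (0.0478). There its values were the same and only the other probe sets in the fit differed. The probe set did not pass after quantile normalization (0.120), with equal array medians (0.0508), over all probe sets that are not controls (0.0691) or without any 1 array (0.0543 to 0.210).

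The other Irf4 probe set, 1421174_at, showed a smaller and more scattered difference. Its Batf+/+ values were -0.39, 0.20 and 0, and its Batf-/- values were 0.54, 0.02 and 0.17. The groups overlapped, since Batf+/+ array 2 lay above Batf-/- arrays 2 and 3. The difference was 0.31 ± 0.18 (limma adjusted p = 0.90), which array weights lowered to 0.17 and leaving out array 1 of the Batf+/+ or of the Batf-/- group lowered to 0.14 or 0.16. The gap between the 2 probe sets was 0.48 larger in Batf-/- cells, which an exact two-sided permutation test over arrays gave a p of 0.3, where the smallest p that 3 against 3 arrays allow is 0.1. The mean of both rose by 0.54 ± 0.10, 1.46-fold (limma adjusted p = 0.0454 over genes). Leaving out any 1 array other than Batf-/- array 2 took the adjusted p above the threshold (0.188, 0.154 and 0.0848 for Batf+/+ arrays 1, 2 and 3, and 0.122 and 0.131 for Batf-/- arrays 1 and 3), and so did other scalings, by quantile normalization (0.117) and by setting array medians equal (0.0509), with log2 differences between 0.48 and 0.59 throughout.

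Irf8, which directs B cell and dendritic cell programmes and can also pair with Batf, had higher values on both of its probe sets. On 1416714_at the Batf+/+ arrays had 0, -0.05 and 0.14 and the Batf-/- arrays 0.52, 0.46 and 1.04. On 1448452_at they had 0, -0.11 and 0.01 against 0.53, 0.10 and 0.37. The genotypes did not overlap on either probe set, although Batf-/- array 2 lay close to the Batf+/+ arrays on the latter. The differences were 0.64 ± 0.15, 1.56-fold (limma adjusted p = 0.19), and 0.36 ± 0.12, 1.29-fold (limma adjusted p = 0.462), with unadjusted p-values that ranked 578th and 1103rd of all probe sets. Neither passed, and with the replicate block the former had an adjusted p of 0.0585. As a gene mean Irf8 had a difference of 0.50 ± 0.11 (95% interval 0.25 to 0.75, limma adjusted p = 0.0919), which passed when Batf-/- array 2 was left out (0.0389) and with the replicate block (0.0306).

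Because Irf8 marks B and dendritic cells, their markers were read on the same arrays. Of 8 measured B cell markers 0 passed in limma in either direction (1 at an unadjusted p below 0.05, higher), and 4 lay above 0. Their mean lay between -0.06 and 0.08 on the Batf+/+ arrays and was 0.06, 0.04 and 0.37 on Batf-/- arrays 1, 2 and 3. Batf-/- array 3 was thus highest both for the B cell markers and for Irf8 1416714_at. On Irf8 1448452_at Batf-/- array 1 was highest (0.53, against 0.37 on array 3), and Irf4 1421173_at was also highest on array 3 (0.97). The largest single value was that of Cd22, a receptor of B cells, named after its value was seen, at 0.52, 0.43 and 1.76 on the Batf-/- arrays (difference 0.90 ± 0.30, limma adjusted p = 0.374). The B cell factor Pax5 had -0.0035 ± 0.11 and Cd79b -0.0099 ± 0.19, while Ms4a1 had 0.23 ± 0.10 (limma adjusted p 1, 1 and 0.695). Cd79a had 0.16 ± 0.10 (limma adjusted p = 0.890). The choice of these genes was made with their values known. The difference of Cd79b hides its spread, with -0.21, -0.37 and 0.47 on Batf-/- arrays 1, 2 and 3. Ms4a1 (0.13, 0.16 and 0.34) and Cd79a (0.10, 0.06 and 0.34) were likewise highest on array 3. Pax5 (-0.19, 0.06 and -0.08) was highest on array 2. Of 10 markers of dendritic and other myeloid cells 0 passed (0 at an unadjusted p below 0.05), with means from -0.10 to 0.13 on the Batf+/+ and -0.15 to 0.17 on the Batf-/- arrays. Of 6 markers of plasmacytoid dendritic cells 0 passed (1 unadjusted, lower), with means from -0.12 to 0.03 and -0.03 to 0.05. Of 6 of plasma cells 0 passed and 3 lay above 0, with means from -0.07 to 0.02 and -0.03 to 0.08. At an unadjusted p below 0.05, 2 of the plasma cell markers were higher and 0 lower. Centring hides whether any of these markers was near background. Without Batf-/- array 3 the Irf8 probe sets had differences of 0.46 and 0.35 (adjusted p 0.176 and 0.718). The part of other cells in the Irf8 and Irf4 values was not tested.

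Irf4 and Irf8 compete for the same composite elements, so their gene means were set against each other within each array. On these centred values this compares how they differed between arrays and not their amounts. Irf4 minus Irf8 was -0.19, 0.05 and -0.04 on the Batf+/+ arrays and 0.05, 0.02 and -0.13 on the Batf-/- arrays. The groups overlapped, and the difference between genotypes was 0.04 (exact two-sided permutation p = 0.7), a comparison that can reach 0.1 at the lowest.

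**Figure D2:**
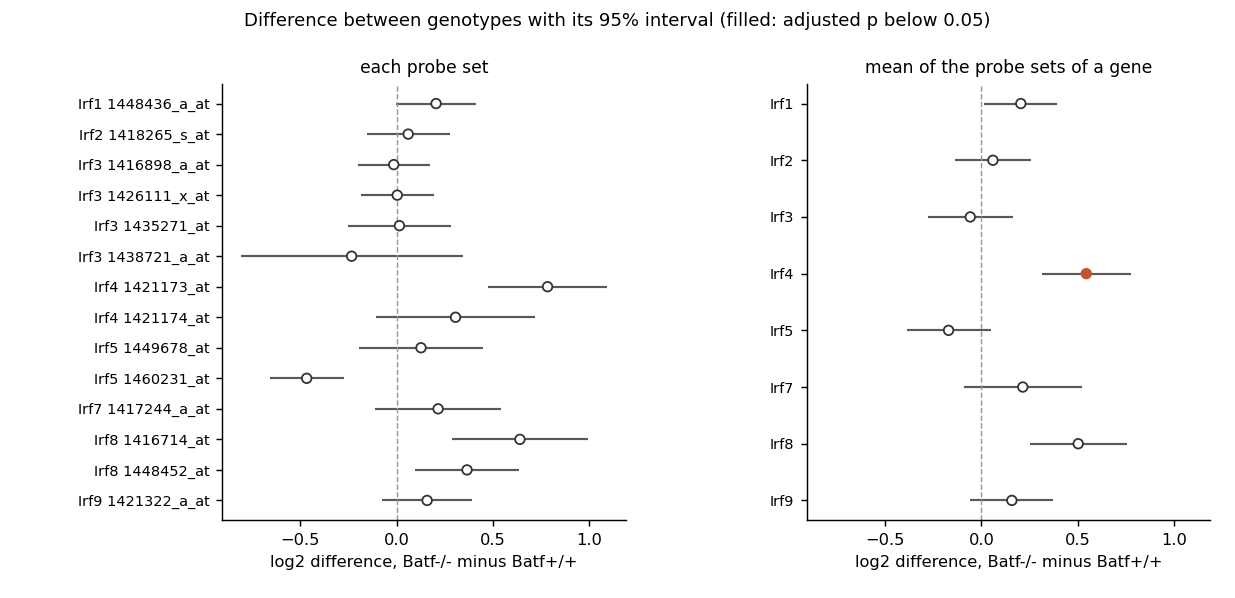
Log2 difference, Batf-/- minus Batf+/+ (x axis), with its 95% interval from limma for each of the 14 probe sets (left) and the mean of the probe sets of each of the 8 genes (right), with filled points at an adjusted p below 0.05. Irf4 (0.54) is the filled gene, the intervals of Irf8 (0.25 to 0.75) and Irf1 lie above 0 in the gene fit without passing the adjusted threshold, and the probe sets of Irf5 lie on opposite sides of 0.

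Irf5, an inducer of inflammatory cytokines in myeloid and B cells, gave opposite values on its 2 probe sets. On 1460231_at the Batf+/+ arrays were tightly grouped at -0.0096, 0 and 0.0067 and the Batf-/- arrays had -0.57, -0.37 and -0.47. All Batf-/- arrays were therefore lower, with a difference of -0.47 ± 0.08 (95% interval -0.66 to -0.28, limma adjusted p = 0.0615, rank 280 of all probe sets). With equal array medians it passed narrowly (-0.47, adjusted p = 0.0499), and quantile normalization took its adjusted p to 0.318. On 1449678_at the values were -0.28, 0.24 and 0 against 0.02, 0.26 and 0.05, which overlap, with a difference of 0.13 ± 0.14 (limma adjusted p = 0.985). Its sign turned to -0.0096 without Batf+/+ array 1. The gap between the probe sets lay between -0.27 and 0.24 on the Batf+/+ arrays and between 0.52 and 0.63 on the Batf-/- arrays, a difference of 0.59 with the smallest p the exact two-sided permutation test allows, 0.1. The mean of both probe sets (-0.17 ± 0.10, limma adjusted p = 0.835) lies between values of opposite sign.

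Irf7, the amplifier of type I interferon, varied among the Batf+/+ arrays as much as between genotypes. Its Batf+/+ values were -0.03, 0.47 and 0 and its Batf-/- values 0.35, 0.26 and 0.46. Batf+/+ array 2 was as high as the highest Batf-/- array, and the other Batf+/+ arrays were lower than every Batf-/- array. The difference was 0.21 ± 0.14 (limma adjusted p = 0.934), and 0.38 (adjusted p = 0.457) without Batf+/+ array 2. It was smaller without Batf+/+ array 1 (0.13) or 3 (0.14), after quantile normalization (0.089) and with array weights (0.090). Irf9, which binds DNA for the interferon-activated STAT complex, had 0.06, 0 and -0.13 against 0.15, -0.01 and 0.27. These groups overlapped through Batf-/- array 2, with a difference of 0.16 ± 0.10 (limma adjusted p = 0.928) that shrank to 0.09 when Batf-/- array 3 was left out and to 0.10 when Batf+/+ array 3 was.

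Irf1 showed a small difference in 1 direction on every array. Its Batf+/+ values were 0, 0.10 and -0.11 and its Batf-/- values 0.20, 0.27 and 0.13. All Batf-/- arrays lay higher, by 0.20 ± 0.09, 1.15-fold (limma adjusted p = 0.734), with a 95% interval of -0.0018 to 0.41. In the gene fit, which moderates the spread over genes in place of probe sets, the interval of the same difference was 0.01 to 0.39 (limma adjusted p = 0.571). Irf2, which can occupy Irf1 sites as a repressor, had a difference of 0.06 ± 0.09 (95% interval -0.16 to 0.27, limma adjusted p = 0.998), whose sign turned without Batf+/+ array 3 (-0.01).

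Irf3, present in most cells before infection, had 3 probe sets within 0.02 of 0. Their differences were -0.02 ± 0.08, 0.0025 ± 0.08 and 0.01 ± 0.12 (limma adjusted p = 1 for each), and their 95% intervals all lay within -0.25 to 0.28. The sign of such values has no weight: that of 1426111_x_at turned with equal array medians (-0.0026) and that of 1435271_at after quantile normalization (-0.02). The remaining probe set, 1438721_a_at, had 0.15, -0.27 and 0 on the Batf+/+ arrays and 0.26, -0.83 and -0.26 on the Batf-/- arrays. It had the largest standard error of the family, with a difference of -0.23 ± 0.25 (limma adjusted p = 0.984) that became 0.04 without Batf-/- array 2. The average over all 4 probe sets was -0.06 ± 0.10 (limma adjusted p = 1), and 0.01 when the 3 probe sets with names ending in _a_at or _x_at were left out.

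For the probe sets with the smallest p, those of the other genes with the nearest values over the 6 arrays were sought by Euclidean distance in log2 units. Nearest to Irf4 1421173_at were probe sets of the collagen receptor Ddr1 (distance 0.187), Erich3 (0.195) and Tmie (0.271). Nearest to Irf5 1460231_at were those of the actin regulator Pfn2 (0.102), Pear1 (0.14) and the repressor Hic1 (0.141). This describes the shape of the values over these arrays only.

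Among partner factors and upstream signals of the IRF proteins, Batf alone passed the test. Its fall follows from the genotype and is no result about the partners. Of 14 measured partners that bind DNA beside IRFs, Batf fell and 0 rose, with a median of 0.02 against 0.0047 over all genes. The gene fit called 0.83% of all genes lower and 0.313% higher. Batf3, which can stand in for Batf, had a difference of 0.07 ± 0.09. The Jun proteins that pair with Batf had 0.32 ± 0.23 (Jun), -0.07 ± 0.31 (Junb) and -0.02 ± 0.12 (Jund), with limma adjusted p-values of 0.932, 1 and 1. The 95% intervals were wide, -0.21 to 0.84 for Jun and -0.78 to 0.64 for Junb. Leaving out Batf+/+ array 3 took the Jun difference to 0.06, leaving out Batf-/- array 1 to 0.13 and leaving out Batf+/+ array 2 to 0.51, and array weights gave 0.12. Junb ran low on the arrays numbered 3 of both genotypes (-0.93 and -0.94), and its sign and that of Jund turned when single arrays were left out. The Ets factor PU.1, encoded by Spi1, had -0.11 ± 0.11 (limma adjusted p = 0.991), and Stat2 had 0.09 ± 0.10 (limma adjusted p = 0.999).

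Of 19 measured genes upstream of IRFs, 0 passed in limma in either direction and 0 at an unadjusted p below 0.05, with differences from -0.23 to 0.23. The receptor chains for interferon gamma and type I interferon, Ifngr1 and Ifnar1, had 0.13 ± 0.10 and -0.08 ± 0.12 (limma adjusted p 0.952 and 1). Of 11 measured cofactors and regulators of IRF proteins 0 passed (2 at an unadjusted p below 0.05), with differences from -0.17 to 0.25.

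Genes known to depend on Irf4 in effector T and Treg cells mostly had lower values in Batf-/- cells. Of 14 measured members 4 fell and 1 rose, against 0.83% and 0.313% of all genes, and the median was -0.40 against 0.0047 over all genes. This list, like the others, was chosen with earlier results of these data known. With the replicate block 5 were lower and 2 higher, where the factor Nfil3 (-0.94, limma adjusted p = 0.0193, and 0.579 without the block) and Il10 were added. The share of all genes past the threshold with the block was not counted. The inhibitory receptor Klrg1 (3.90-fold), the costimulatory receptor Icos (2.09-fold), the nuclear receptor Rora (2.07-fold) and Prdm1, which encodes Blimp-1 (1.72-fold), fell, and the helper cytokine Il21 rose 2.12-fold (limma adjusted p between 0.000330 and 0.0132). The 9 probe sets of Rora lay between -1.83 and -0.0074 and the 2 of Il21 at 0.32 and 1.86. Quantile normalization took the adjusted p of Il21 to 0.106 and that of Prdm1 to 0.0615, and Prdm1 also missed the threshold without any 1 of the Batf+/+ arrays (adjusted p 0.0510 to 0.0724). Prdm1 had 0.07, -0.0062 and 0 on the Batf+/+ arrays and -0.78, -0.99 and -0.52 on the Batf-/- arrays, so the groups lay well apart. Il10, an inhibitory cytokine, had 0, 0.20 and -0.77 against 1.22, 0.70 and 0.13, which overlap, with a difference of 0.88 ± 0.30 (limma adjusted p = 0.396, and 0.0307 with the replicate block).

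Genes known as targets of Irf1 moved in both directions. Of 14 measured members 1 rose and 1 fell, against 0.313% and 0.83% of all genes, and the median was 0.11 against 0.0047 over all genes. Gbp2b, an interferon-inducible GTPase, rose 4.06-fold, from values between -0.02 and 0.03 to 2.12, 1.73 and 2.21 (2.02 ± 0.12, limma adjusted p = 0.00013). The chemokine Cxcl10, which attracts Cxcr3+ cells, fell 2.85-fold, from 0, 0.59 and -0.46 to -1.32, -1.61 and -1.47 (-1.51 ± 0.22, limma adjusted p = 0.0131). The Batf-/- arrays agreed closely and the Batf+/+ arrays were scattered, but the groups did not overlap. Quantile normalization took its adjusted p to 0.167, and leaving out Batf+/+ array 1 or Batf-/- array 2 took it to 0.0635 or 0.0583. The related GTPases Gbp2 and Gbp3, named after their values were seen, had 0.67 ± 0.14 and 0.56 ± 0.12 (limma adjusted p 0.0689 and 0.0840). The antigen-processing genes Tap1, Psmb8 and Psmb9, also named afterwards, had 0.03, 0.08 and 0.25 (limma adjusted p 1, 1 and 0.796).

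**Figure D3:**
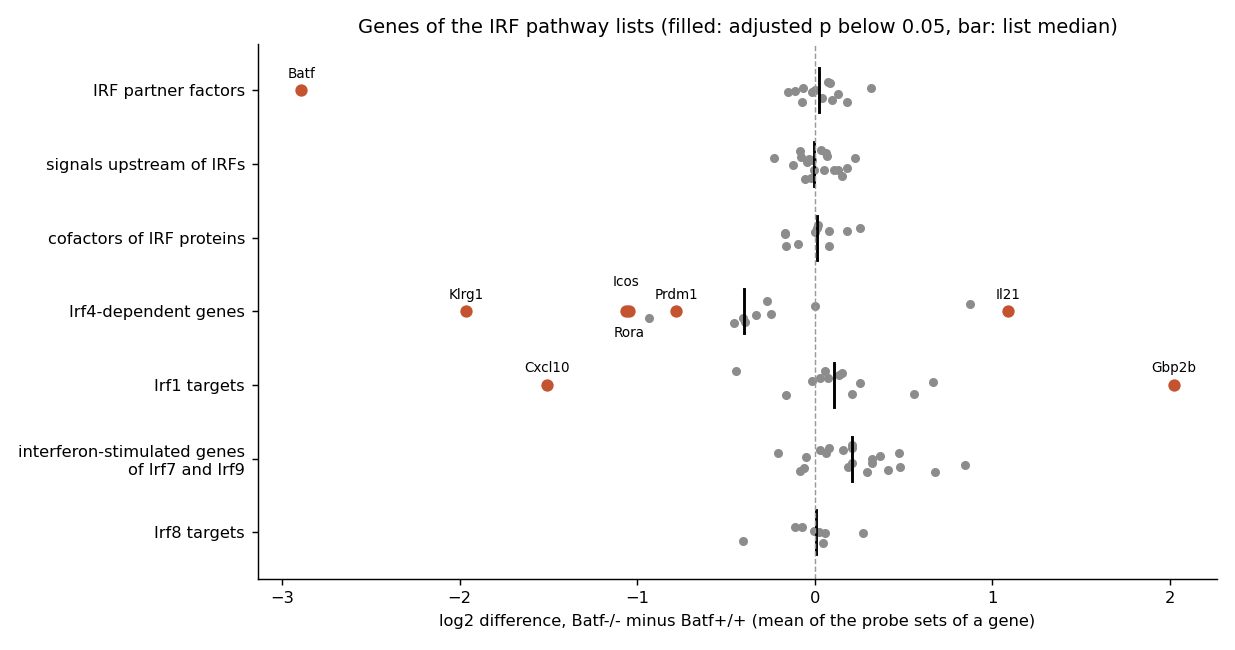
Log2 difference, Batf-/- minus Batf+/+ (x axis), of each measured gene in 7 lists around the IRF family (y axis), with red labelled points at a limma adjusted p below 0.05, grey points for the others and black bars at list medians. Called genes appear in the rows of the partner factors (Batf), the Irf4-dependent genes (4 lower, 1 higher) and the Irf1 targets (Gbp2b higher, Cxcl10 lower).

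Interferon-stimulated genes that answer to Irf7 and Irf9 mostly had higher values in Batf-/- cells but did not pass. Of 21 measured members 17 lay above 0, with a median of 0.21 against 0.0047 over all genes. In limma 0 of these members passed, against 1.14% of all genes. An unadjusted p below 0.05 was reached by 5, of which 4 were higher and 1 lower. The lower one was Eif2ak2 (-0.21 ± 0.09, limma adjusted p = 0.632), named after its value was seen, whose genotypes did not overlap. The mean of the 21 members was -0.07, 0.50 and -0.04 on Batf+/+ arrays 1, 2 and 3 and 0.29, 0.28 and 0.53 on the Batf-/- arrays. Batf+/+ array 2 thus stood apart from the other Batf+/+ arrays in these genes as it did in Irf7. Without that array Oasl2 (1.14), Oas2 (0.80) and Oasl1 (0.68) were higher past the threshold (limma adjusted p 0.0302, 0.0497 and 0.0347). With all arrays these antiviral proteins of the oligoadenylate synthetase family had 0.85, 0.48 and 0.41 (limma adjusted p 0.230, 0.766 and 0.749). They were picked with their values known. On Batf+/+ array 2 they had 0.87, 0.93 and 0.81. The array was singled out because the listed genes ran high on it. Larger differences without it therefore follow from that choice and are no separate test. Without each other single array 0 members of the list were higher past the threshold.

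**Figure D4:**
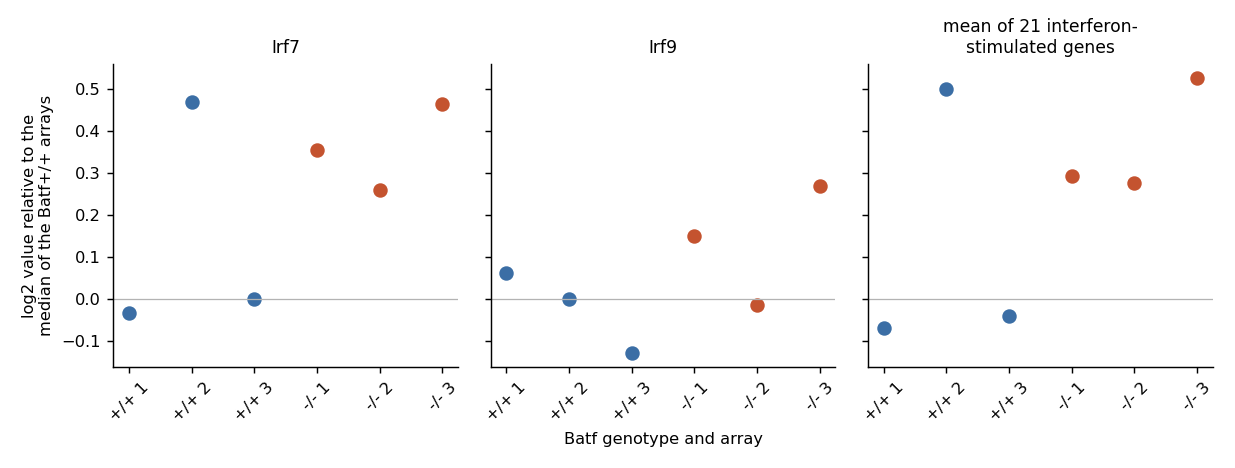
Log2 value counted from the middle Batf+/+ array (y axis) on each array (x axis; blue Batf+/+, red Batf-/-) for Irf7, Irf9 and the mean of 21 interferon-stimulated genes. Batf+/+ array 2 (0.47 for Irf7, 0.50 for the mean) lies with the Batf-/- arrays in the first and last panels and not for Irf9.

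Of 8 measured Irf8 targets of B and myeloid cells 0 passed (2 at an unadjusted p below 0.05), with a median of 0.0090 against 0.0047 over all genes and differences from -0.41 to 0.27. The lowest was Bcl6, which is also in the Irf4 list and passed with array weights (adjusted p = 0.0476), and the highest the chemokine receptor Xcr1, both named after their values were seen.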

How the data were processed

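Biotin-labelled RNA was hybridised to a 3' expression array, and the deposited values came from RMA, per the submitters' processing notes. Version and log base are not given in the sources used here; the deposited values were taken as log2, on which every fold rests. In all 45101 probe sets the middle Batf+/+ value is 0, so values are relative to the Batf+/+ median, a step no label describes, and no filter on dim probe sets could be made. The platform annotation named the probe sets: 34945 had 1 gene, 932 several, 9160 none listed and 64 were controls. Genotypes were compared with limma 3.58.1 in R 4.3.3 (lmFit, eBayes, Benjamini-Hochberg adjustment, threshold 0.05), by probe set and by gene as the mean of its probe sets. The members, lists and naming rule (all members, Batf, 12 fixed genes, of which 11 are reported here, and up to 3 called genes of each list, 4 for the Irf4 list) were chosen with earlier results of these data known. The number of arrays limits precision. After subtraction of group means, arrays of the same number correlated at 0.411, 0.203 and 0.439 across probe sets, above the minimum of 0.1. The numbers in the titles were therefore taken, from the values and not the labels, to pair the arrays. The fit without the block stayed the main one, so its p-values take no account of this pairing. Nor do the exact permutation tests over arrays. Alternatives were scaling, array weights, robust moderation, the replicate block, the probe sets used and leaving out single arrays.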

Additional observations from a re-analysis of the deposited data

How the results depend on the processing

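Quantile normalization lowered the number of probe sets past the threshold from 188 to 87 lower and from 61 to 33 higher, and the replicate block raised the higher ones to 92. Because quantile normalization made the unequal spreads of centred values equal, calls lost under it do not show a dependence on array scaling alone. Without single arrays there were 64 to 224 lower and 17 to 56 higher, with the fewest lower without Batf+/+ array 1. The count of IRF probe sets past the threshold was 1 lower with equal array medians. It was 1 higher without probe sets ending in _a_at, _s_at or _x_at, with array weights, with robust moderation and with the replicate block. Without single arrays it was 0 to 0 in each direction. Genes of the pathway lists past the threshold numbered 6 lower and 2 higher, against 0.83% and 0.313% of all genes. The lower ones include Batf, which the Batf-/- mice lack. After quantile normalization 1 was higher, and without single arrays 4 to 7 were lower and 2 to 5 higher. The 5 higher were found without Batf+/+ array 2, on which the interferon-stimulated genes ran high (mean 0.50). Shares of all genes in these refits were not counted. Values near 0 changed sign: Irf3 1426111_x_at was -0.0026 with equal array medians, Irf3 1435271_at -0.017 after quantile normalization and the Irf3 mean 0.014 without probe sets ending in _a_at, _s_at or _x_at. Leaving out single arrays gave -0.013 to 0.11 for Irf2, -0.040 to 0.029, -0.026 to 0.038, -0.052 to 0.12 and -0.50 to 0.044 for the Irf3 probe sets 1416898_a_at, 1426111_x_at, 1435271_at and 1438721_a_at, -0.12 to 0.024 for their mean, and -0.0096 to 0.25 for Irf5 1449678_at. Among list genes the ranges were -0.015 to 0.12 for Batf3, -0.40 to 0.23 for Junb, -0.15 to 0.090 for Jund, -0.0076 to 0.16 for Stat2 and -0.23 to 0.011 for Ifnar1. The replicate block changed no other call of an IRF probe set or gene than those given. Of 175 refits of IRF probe sets 156 kept direction and side of the threshold. No filter on dim probe sets and no test of scan date or slide could be made.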
